A study of Mus musculus with 38 samples.

Results

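The comparison described here was made between PanCK+ segments of liver sections from wild type (WT) mice fed a DDC diet and from WT mice fed a control diet (CON). It was chosen by the labels alone, as every segment labelled WT and PanCK, and held 7 of the 38 segments of the series: 4 DDC segments from regions of interest (ROIs) 007, 009, 011 and 013, and 3 CON segments from ROIs 001, 003 and 005. DDC (diethoxycarbonyl-dihydrocollidine) blocks heme synthesis, and the porphyrin that accumulates plugs small bile ducts and causes cholestasis. The C57BL/6 mice were 6 to 8 weeks old and received 3 rounds of 5 days of control diet or 0.1% DDC diet, with 2 rounds of 3 days of chow in between (21 days in all), and were killed on day 22. In the GeoMx assay, barcoded probes are released by light from 1 stained area at a time, amplified and counted. The ROIs were drawn in periportal tissue, and PanCK, a stain for keratins, outlined the cholangiocytes within them. Other segments served for tests of a difference and for levels given beside the 7. They included 9 PanCK+ segments (4 CON, 5 DDC) of Trail.mye mice, in which Cre driven by *Lyz2* deletes *Trail* in myeloid cells. Also used were 6 IBA1+ macrophage segments (2 CON, 4 DDC) of the WT portal ROIs. The 9 Trail.mye segments also entered the fit of the diet's difference in WT mice, where they shared the estimate of the spread. The labels name no animal, section or slide. Segments can therefore share a mouse, and the p-values over segments given below are too small to stand for mice.

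Cholangiocytes line the bile ducts, modify bile and are joined by keratin-rich, tight epithelium. In cholestasis they multiply and form irregular ductules, the ductular reaction, in which epithelial cells are known to express matrix proteases, chemokines and antimicrobial proteins and lie among fibroblasts and macrophages. Hepatocytes, which border the ductules, make plasma proteins, bile acids and most enzymes of lipid, amino acid and drug metabolism.

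Depth differed with the diet. Total counts were 29510, 23481 and 24303 in the CON segments, and 50851, 49877, 46676 and 61665 in the DDC segments, without overlap (two-sided exact permutation p = 0.0571, the smallest that 35 splits allow). The lowest value in the files is 1 count, held by 53.6% to 67.2% of genes in CON and by 21.8% to 36.3% in DDC segments, and the 75th percentile of the counts was only 2 or 3 in CON segments. Q3-normalized counts, which set this percentile to 10.5 in every segment, therefore step by 3.50 to 5.25 per count in CON and by 2.10 to 2.63 in DDC segments. Over the 467 genes with a mean of at least 10 counts, log2 Q3-normalized counts of 2 segments correlated across genes (which are not independent replicates) at 0.805 to 0.833 within CON, 0.853 to 0.894 within DDC, and 0.392 to 0.59 between the diets.

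Of 10547 genes tested (edgeR's quasi-likelihood test, Benjamini-Hochberg adjusted p under 0.05), 52 were called higher (0.493% of all genes) and 44 lower (0.417%) with DDC, 96 in all (0.91%). Over all genes tested, log2 fold changes had a median of -0.17, against which single values are read. Genes that rose included 4 of 14 genes of fibrillar collagens and their assembly, the protease *Mmp7*, the antimicrobial *Lcn2* and 6 of 25 histone genes. Genes that fell included *Mup13*, *Fabp1*, *Scd1* and *Bhmt*, which hepatocytes express. All 52 genes called higher lay above every CON segment after Q3 normalization (background 5.46% of all genes) and in the deposited counts (background 16.9%), and 42 of the 44 called lower did not overlap after Q3 normalization (background 6.99%). The calls were made from these same segments, so the lack of overlap describes them and adds no support. Since the DDC segments were deeper, only 19 of these 44 were also lower without overlap in the deposited counts (background 0.275%). In such segments fewer cells of a type and less RNA per cell cannot be told apart.

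**Figure D1:**
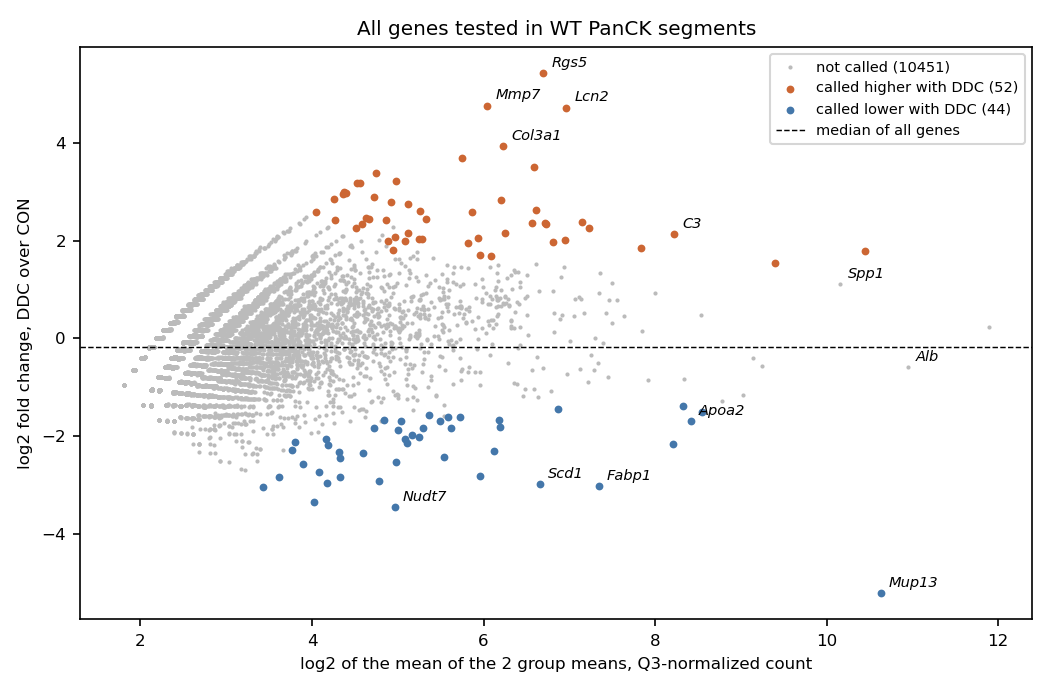
Log2 fold change (DDC over CON) of every gene tested in WT PanCK+ segments against the log2 of the mean Q3-normalized count of the 2 diets; each point is a gene, coloured where called higher (52) or lower (44), and the dashed line is the median of all genes (-0.17). Called genes lie at both edges, and the points at low levels fall on bands because counts of 1 to 3 are few distinct values.

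Promoter bases of leading genes are shown here to describe called genes by letters that the comparison did not use. TATAAA, the letters of the TATA box, was searched on either strand between 250 bases before and 50 bases after the outermost annotated start. A match at any position was counted. It was found in 12 of the 33 genes called higher that have a RefSeq promoter (36.4%), in 6 of 32 called lower (18.8%) and in 677 of all 8428 (8.03%). An AP-1 site (TGANTCA, which reads the same on both strands) was found in 4 of the 33 (12.1%), 2 of the 32 (6.25%) and 5.27% of all. The C/EBP motif (TTGCNNAA) was found in 15.2%, 15.6% and 8.83%, the TEAD motif (GGAATG) in 15.2%, 12.5% and 12.0%, and the NF-kB consensus in 3.03%, 3.13% and 4.87%. Most called genes thus lacked each motif, and no test was run on these shares. Of the genes called higher with a TATAAA match, 3 are histone genes (*H2bc8*, *H4c11* and *H4c17*), and the others are *Mmp7*, *Col3a1*, *Cldn2*, *C3*, *Krt8*, *Muc1*, *Anxa2*, *Myh9* and *Fmo5*. The 150 bases before the start are given 5′ to 3′ on the gene's strand (RefSeq, GRCm38.p6), with capitals for matches to these motifs. They belong to *Mmp7* (chr9:7691940-7692089, + strand), *Col3a1* (chr1:45311388-45311537, + strand) and *Rgs5* (chr1:169655351-169655500, + strand), which rose, and to *Fabp1* (chr6:71199729-71199878, + strand), which fell.
Mmp7: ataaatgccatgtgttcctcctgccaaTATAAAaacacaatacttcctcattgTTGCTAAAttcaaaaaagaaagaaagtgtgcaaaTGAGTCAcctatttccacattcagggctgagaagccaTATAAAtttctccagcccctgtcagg
Col3a1: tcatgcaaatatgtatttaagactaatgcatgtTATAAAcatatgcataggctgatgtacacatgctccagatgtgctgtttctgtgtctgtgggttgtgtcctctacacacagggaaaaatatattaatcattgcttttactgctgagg
Rgs5: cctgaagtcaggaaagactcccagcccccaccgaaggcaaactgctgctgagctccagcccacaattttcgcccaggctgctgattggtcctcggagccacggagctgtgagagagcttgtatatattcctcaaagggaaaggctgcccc
Fabp1: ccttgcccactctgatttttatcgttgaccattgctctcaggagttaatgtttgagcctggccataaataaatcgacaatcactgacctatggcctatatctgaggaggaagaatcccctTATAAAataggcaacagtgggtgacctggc
In *Mmp7* the TATAAA match nearest the start began 26 bases before it, the AP-1 site 63 and the C/EBP motif 97 bases before it. The TATAAA match of *Fabp1* began 30 bases before its start, and that of *Col3a1* 117. No promoter of *Ccl2*, *Col1a1*, *Mup13* or *Scd1* was used here.

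The highest change was that of *Rgs5*, a regulator of G protein signalling best known from pericytes. It was at 1 count in each of the 3 CON segments and at 66, 86, 81 and 121 counts in the DDC segments (ROIs 007, 009, 011 and 013). The DDC mean of 203 ± 40.0 Q3-normalized counts (SD, n = 4) was at least 14.5-fold the level of 3 counts per CON segment (edgeR adjusted p = 1.25e-09). *Rgs5* heads the list of pericyte and smooth muscle markers, of which it was the only 1 of 8 measured genes to pass the test. *Acta2*, smooth muscle actin, held 2, 1 and 3 counts in CON and 2, 1, 2 and 7 in DDC segments, and the other 6 markers stayed at or below 8 counts in every segment. The Q3-normalized mean of *Rgs5* in IBA1+ segments of the DDC-fed WT mice was 27.6 ± 26.2 (SD, n = 4).

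Matrix genes followed. *Mmp7*, matrilysin, an epithelial protease of the matrix, was at 1 count in every CON segment and at 40, 62, 44 and 78 counts with DDC, at least 9.08-fold higher (edgeR adjusted p = 2.84e-07). Among 14 matrix proteases and inhibitors it was the only one called. Of 14 fibrillar collagens and assembly genes, 4 rose and none fell (median log2 fold change 0.60, or 1.42 over the 7 genes left when those at 1 count throughout a diet are set to their bound or left out). *Col3a1* held 4, 1 and 1 counts in CON and 75, 45, 65 and 55 in DDC segments (log2 fold change 3.94 ± 0.58 SE, adjusted p = 9.61e-07). *Col1a1* held 2, 2 and 1 against 51, 27, 44 and 49 counts (3.69 ± 0.61, adjusted p = 1.62e-05). Every DDC segment was thus far above every CON segment, and ROI 009 was the lowest of the 4 for both genes and for *Col1a2*, which was at 1 count in CON and at 21, 12, 15 and 16 counts with DDC. *Sparc*, a collagen-binding matrix protein, went from 3, 2 and 2 to 29, 25, 28 and 32 counts (log2 2.62 ± 0.55). Except for *Col1a2* (adjusted p = 0.12 without ROI 001), these calls held with any segment left out. *Col1a1* and *Col3a1* are also fibroblast markers, and the other 13 of the 15 fibroblast and stellate cell markers were not called. *Dcn* held 8, 6 and 1 against 17, 12, 11 and 14 counts, *Gsn* 18, 6 and 1 against 9, 3, 4 and 7, and *Pdgfra* was at 1 or 2 counts throughout. The summed Q3-normalized level of the list was 99.8 to 207 in CON and 250.001 to 497 in DDC segments. In IBA1+ segments of the same mice the DDC means were higher than in PanCK+ segments for *Col1a1* (316 against 100.3) and *Col3a1* (397 against 142). What RNA of neighbouring fibroblasts contributes was not tested.

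**Figure D2:**
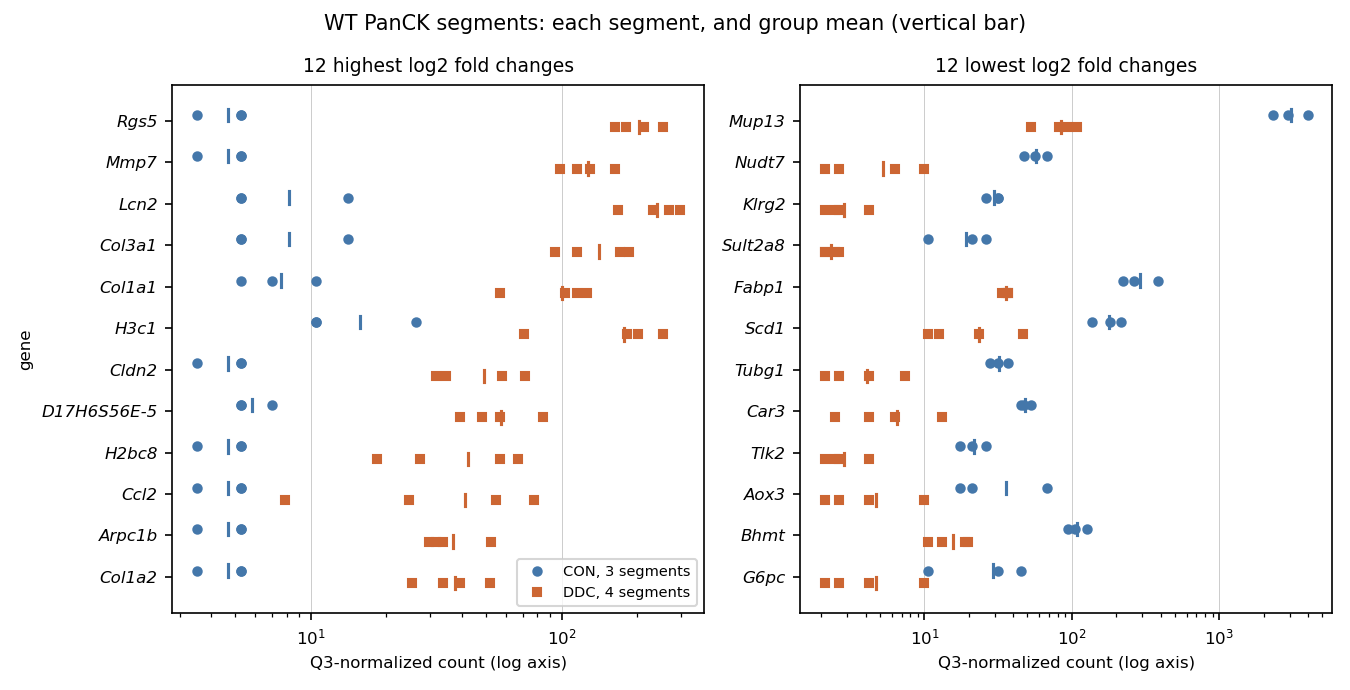
Q3-normalized counts (log axis) of the called genes without overlap between the diets that changed most (12 higher, 12 lower), in each of the 3 CON (circles) and 4 DDC (squares) WT PanCK+ segments, with vertical bars at the diet means. *Rgs5*, *Mmp7* and *Lcn2* have the widest gaps between the diets among the higher genes, *Ccl2* in ROI 011 (7.88) lies near its CON values, and *Mup13* falls from a mean of 3085 to 84.4.

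Antimicrobial and inflammatory genes rose in small numbers from each list. *Lcn2*, lipocalin, which binds bacterial siderophores, held 4, 1 and 1 counts in CON and 68, 128, 88 and 141 in DDC segments (log2 4.73 ± 0.57 SE, edgeR adjusted p = 1.25e-09). It was the only one called of 15 acute phase and antimicrobial genes. *Hp*, haptoglobin, was at 14, 11 and 8 against 72, 46, 47 and 88 counts and missed the threshold (log2 1.53 ± 0.44, adjusted p = 0.068). *C3*, the central complement component, rose from 32, 26 and 15 to 191, 206, 202 and 243 counts (2.13 ± 0.39), and *Clu*, clusterin, rose from 165, 107 and 137 to 783, 933, 1035 and 1000 counts (means of 620 and 2178 Q3-normalized counts, adjusted p = 0.000384). Both were above CON in each DDC segment with little spread among the 4. *Sftpd*, a collectin that binds microbial sugars, went from 1, 1 and 2 to 18, 21, 20 and 21 counts (2.90 ± 0.59, adjusted p = 0.00119, and 0.0696 without ROI 001).

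*Ccl2*, which attracts monocytes, was the only one called of 10 chemokines and cytokines. It was at 1 count in CON and at 10, 26, 3 and 37 counts in DDC segments, at least 2.94-fold higher (edgeR adjusted p = 0.00841, and 0.137 without ROI 013). ROI 011 thus lay close to the CON level while ROI 013 held the most counts. *Vcam1*, an adhesion molecule for leukocytes, was the only one called of 13 NF-kB and AP-1 response genes (2, 1 and 1 against 9, 19, 12 and 18 counts, adjusted p = 0.0367, and 0.216 without ROI 001). *Cd74*, the invariant chain of class II antigen presentation, was the only one of 14 interferon and antigen presentation genes (11, 1 and 4 against 25, 38, 45 and 51 counts, adjusted p = 0.032, and 0.37 without ROI 003). *H2-K1*, a class I gene, had 99.8 ± 9.1 Q3-normalized counts in CON and 141 ± 14.3 in DDC segments (SD, n = 3 and 4, adjusted p = 0.973).

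*Cd14*, the co-receptor for bacterial lipopolysaccharide, was the only one called of 15 macrophage and Kupffer cell markers. It held 2, 1 and 3 counts in CON and 13, 19, 16 and 39 in DDC segments (log2 2.42 ± 0.61 SE, edgeR adjusted p = 0.0188, and 0.242 without ROI 001). The defining markers did not pass. *C1qa* held 2, 3 and 1 against 10, 8, 12 and 14 counts (adjusted p = 0.519), *C1qb* was at 1 against 9, 9, 11 and 15 counts (0.0778), *Adgre1* was at 1 to 4 counts and *Timd4* at 1 count in all 7 segments. The list summed to 84.0 to 110.3 Q3-normalized counts in CON and 183 to 244 in DDC segments. The levels of *Cd14* and *C1qa* were ordered differently by segment class in DDC-fed WT mice. *Cd14* averaged 49.0 in PanCK+ and 12.7 in IBA1+ segments, and *C1qa* 25.6 and 82.7. What RNA of neighbouring macrophages contributes was not tested. None of 8 endothelial, 5 neutrophil and 5 lymphocyte markers was called, and *Pecam1*, *S100a8* and *Cd3e*, the first of each list, held at most 3 counts in any of the 7 segments.

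Cholangiocyte markers were measured in both diets, and all 15 were above 1 count in at least 1 of the 7 segments. Their summed Q3-normalized level was 784 to 1187 in CON and 1798 to 2384 in DDC segments. Only *Cd24a*, a surface sialoglycoprotein, was called (6, 6 and 6 against 47, 50, 45 and 74 counts, log2 2.16 ± 0.47 SE, edgeR adjusted p = 0.00281, and 0.0804 without ROI 001). *Spp1*, osteopontin, held 145, 156 and 154 against 633, 640, 715 and 695 counts, without overlap (1.12 ± 0.34, adjusted p = 0.102). *Epcam*, an epithelial adhesion molecule, held 11, 11 and 10 against 29, 35, 40 and 68 counts (1.00 ± 0.42, adjusted p = 0.489), and *Sox9*, a transcription factor of biliary cells, 6, 6 and 6 against 9, 20, 20 and 16 (0.44 ± 0.45, adjusted p = 0.973). *Pkhd1*, of the primary cilium, held 11, 12 and 15 against 13, 12, 12 and 9 counts in the deeper DDC segments. After scaling this was a fall that was not called (log2 -1.15 ± 0.43 SE, edgeR adjusted p = 0.31). The list's median log2 fold change was 0.69 (0.57 without the 1 marker that had no bound). Of 14 keratin and epithelial junction genes *Krt8*, *Krt18* and *Anxa2* were called higher. Keratins were used to outline the segments, so their levels are a description: *Krt8* held 19, 10 and 6 against 103, 83, 94 and 153 counts, *Krt18* 13, 4 and 6 against 71, 78, 62 and 98, and *Krt19* 3, 3 and 5 against 24, 21, 21 and 29.

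Further epithelial genes rose. *Cldn2*, which forms pores for cations and water in tight junctions, was at 1 count in CON and at 14, 15, 22 and 34 counts with DDC, at least 3.49-fold higher (edgeR adjusted p = 0.000449). *Muc1*, a mucin of the apical membrane, was the only one called of 12 biliary transport and mucus genes (5, 2 and 1 against 26, 23, 17 and 23 counts, adjusted p = 0.0251, and 0.259 without ROI 005). *Cftr*, the chloride channel of cholangiocytes and first of that list, held 1, 1 and 2 against 3, 4, 6 and 5 counts (adjusted p = 0.973). *Anxa2*, an annexin listed with the epithelial junction genes, went from 7, 3 and 2 to 67, 47, 45 and 67 counts (log2 2.85 ± 0.50). *Ccn2*, a secreted target of TGF-beta and YAP, was the only one called of 14 such genes (4, 3 and 2 against 15, 26, 19 and 24 counts, adjusted p = 0.0486, and 0.289 without ROI 001), while *Tgfb1* itself was at 1 count in all 7 segments. *Cd44*, the hyaluronan receptor, was at 1 count in CON and at 18, 15, 14 and 16 counts with DDC (adjusted p = 0.00822, and 0.16 without ROI 001).

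**Figure D3:**
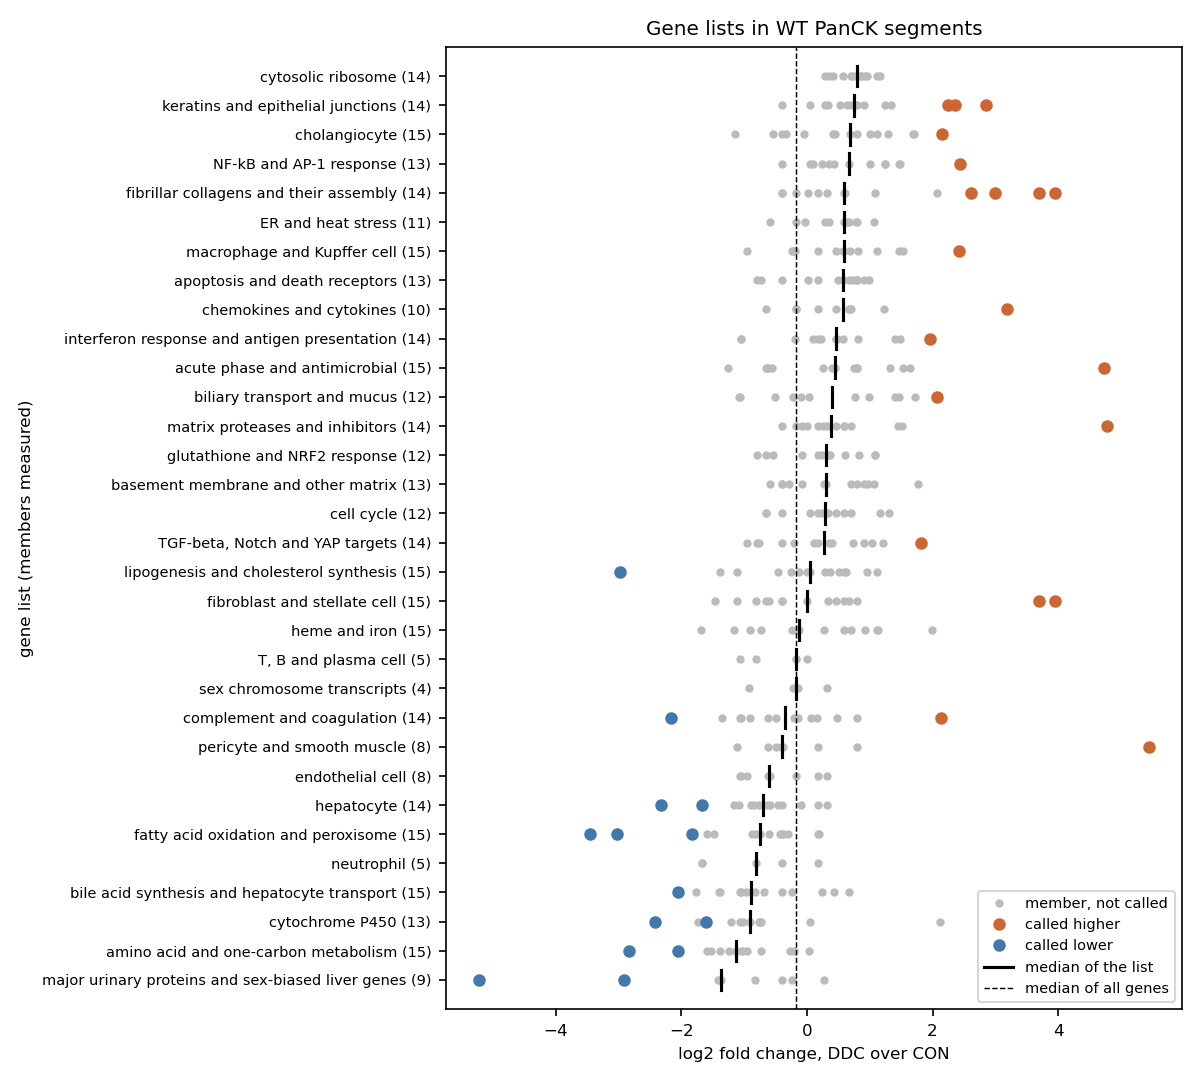
Log2 fold change (DDC over CON) of each measured member of 32 gene lists in WT PanCK+ segments, with larger coloured points for members called higher or lower, black bars at each list's median and a dashed line at the median of all genes (-0.17). In most lists with a call, 1 to 4 members stand apart from the rest, whereas the 14 ribosomal genes lie close together above the median of all genes with none called.

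Genes of the actin cytoskeleton were picked out after their values were seen. *Actb* went from 13, 9 and 8 to 68, 101, 102 and 147 counts (log2 2.39 ± 0.43 SE, edgeR adjusted p = 0.000121) and *Myh9*, a nonmuscle myosin heavy chain, from 4, 1 and 1 to 18, 25, 23 and 42 (2.76 ± 0.60). *Arpc1b*, a subunit of the actin-branching Arp complex, was at 1 count in CON and at 12, 16, 12 and 25 counts with DDC. *Tmsb4x*, a thymosin that binds actin monomers, rose from 18, 9 and 4 to 51, 93, 61 and 116 counts, and *Tagln2*, which binds actin filaments, from 13, 6 and 3 to 32, 54, 36 and 63. In all 5 genes ROI 013 was the highest segment. *Arpc1b*, *Tmsb4x* and *Tagln2* lost their call without ROI 001, 005 and 005 in turn (adjusted p = 0.109, 0.0992 and 0.353).

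Histone genes were also grouped after their values were seen. Of 25 measured 6 rose, none fell, and 23 had a log2 fold change above 0 (median 1.51). *H3c1* held 3, 2 and 5 counts in CON and 103, 87, 27 and 96 in DDC segments (log2 3.52 ± 0.53 SE, edgeR adjusted p = 1.79e-06). *H4c17* held 9, 3 and 6 against 118, 76, 32 and 68 counts, *H2bc11* 8, 9 and 3 against 100, 77, 27 and 75, and *H2ac10* 6, 2 and 3 against 51, 60, 18 and 49. In all 6 genes ROI 011 was the lowest DDC segment, as it was for *Ccl2*. Histone genes are near-identical copies, and the probes may not tell them apart, so these are not 6 independent values. *H2bc8* was called except without ROI 001 (adjusted p = 0.0774) and *H4c11* was not called without ROI 007 (0.434). Cell cycle genes did not pass: of 12 measured none was called, and 6 of the 12 were at 1 count throughout a diet. *Mki67*, a marker of cycling cells, held 2, 1 and 1 against 2, 4, 1 and 4 counts, and *Ccnd1*, cyclin D, held 6, 3 and 6 against 34, 18, 22 and 24 (log2 1.31, adjusted p = 0.252).

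**Figure D4:**
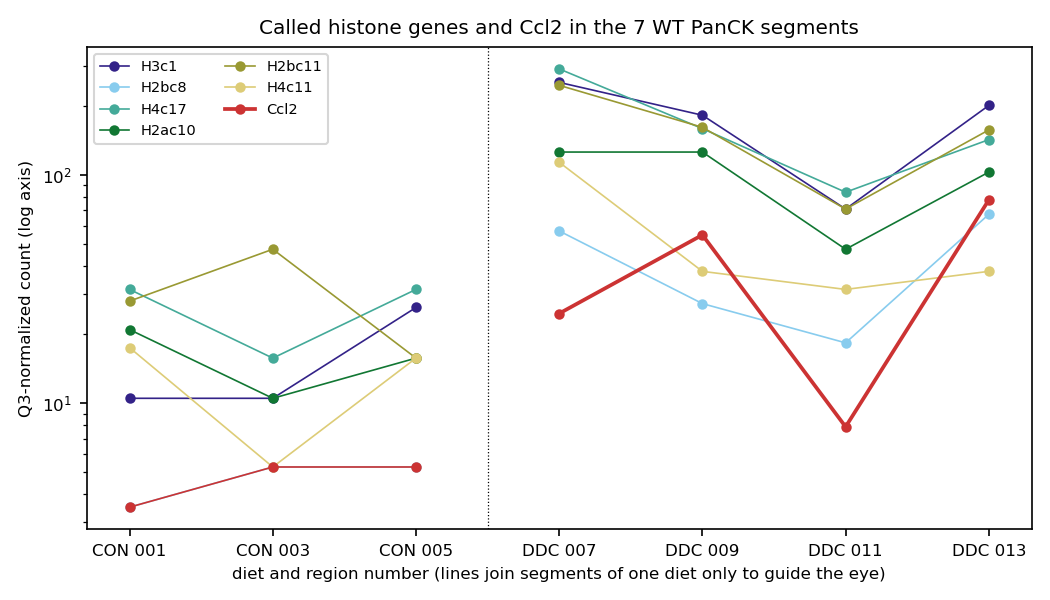
Q3-normalized counts (log axis) of the 6 called histone genes and of *Ccl2* in each of the 7 WT PanCK+ segments, ordered by diet and ROI; lines only join the segments of 1 diet, and the CON points of *H2bc8* lie under those of *Ccl2*. All 7 genes dip in ROI 011 among the DDC segments, where *Ccl2* (7.88) is near its CON values of 3.50 to 5.25.

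Among genes that fell, *Mup13*, a major urinary protein secreted by hepatocytes, had the lowest change. It held 663, 759 and 561 counts in CON and 44, 39, 36 and 25 in DDC segments (log2 -5.22 ± 0.38 SE, edgeR adjusted p = 3.38e-21), so that all DDC segments lay far below CON although they were deeper. *Car3*, a carbonic anhydrase and the only other one called of 9 major urinary protein and sex-biased genes, went from 13, 10 and 9 to 1, 2, 5 and 3 counts (-2.92 ± 0.45). *Sult2a8*, a hepatic sulfotransferase, held 6, 5 and 2 counts in CON and was at 1 count in every DDC segment, at least 2.76-fold lower (adjusted p = 0.00546, and 0.106 without ROI 003).

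Of 15 genes of fatty acid oxidation and the peroxisome 3 fell and none rose. *Fabp1*, the liver's fatty acid-binding protein, went from 75, 73 and 42 to 15, 16, 14 and 17 counts (log2 -3.03 ± 0.38 SE, edgeR adjusted p = 7.1e-09), with hardly any spread among the DDC segments, and *Nudt7*, a peroxisomal hydrolase of coenzyme A, went from 16, 9 and 13 to 4, 1, 1 and 3 counts (-3.46 ± 0.46). The list's median was -0.75 (-0.78 without the 1 gene that had no bound). Outside the list and named after their values were seen, *Scp2*, *Ephx2*, *Pecr*, *Phyh* and *Slc27a2*, which are enzymes or carriers of peroxisomes and lipids, also fell (log2 -2.31, -2.53, -2.57, -1.62 and -1.66). *Pecr*, *Phyh* and *Slc27a2* were not called without ROI 003 (adjusted p = 0.11, 0.543 and 0.507). *Scd1*, the desaturase of stearate, fell from 52, 41 and 26 to 19, 6, 9 and 5 counts (-2.99 ± 0.41) and was the only one called of 15 genes of lipid and cholesterol synthesis. *Fasn*, fatty acid synthase, held 3, 2 and 2 against 5, 9, 3 and 7 counts (adjusted p = 0.973).

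Of 15 genes of amino acid and one-carbon metabolism 2 fell (median -1.13). *Bhmt*, which remethylates homocysteine, went from 36, 20 and 18 to 8, 9, 5 and 5 counts (log2 -2.83 ± 0.43 SE, edgeR adjusted p = 1.67e-06), and *Gnmt*, a glycine methyltransferase, from 8, 17 and 9 to 9, 4, 5 and 4 (-2.06 ± 0.50, adjusted p = 0.014, and 0.497 without ROI 003). Of 13 cytochrome P450 genes *Cyp2f2* and *Cyp2d10* fell (-2.42 ± 0.45 and -1.60 ± 0.39, the latter with adjusted p = 0.127 without ROI 005), while *Cyp2e1* held 12, 8 and 14 against 13, 13, 18 and 9 counts (adjusted p = 0.864). *Slc10a1*, the bile acid importer of hepatocytes, was the only one called of 15 bile acid genes (7, 11 and 1 against 4, 1, 1 and 6 counts, adjusted p = 0.0403, and 0.944 without ROI 003), and its diets overlapped. *Cyp7a1*, the rate-limiting enzyme of bile acid synthesis, was at 1 or 2 counts throughout. Other enzyme genes that fell, of which *Fbp1*, *Uox*, *Ces3b* and *Ces1d* were named after their values were seen, were *G6pc*, a glucose phosphatase (-2.75), *Fbp1*, fructose-bisphosphatase (-2.02), *Pck1*, a carboxykinase (-1.67), *Uox*, urate oxidase (-1.98), *Aox3*, an aldehyde oxidase (-2.85), and the carboxylesterases *Ces3b* and *Ces1d* (-2.34 and -1.84). Of these 7 genes *Ces3b* was called with any segment left out. The adjusted p reached 0.416 for *G6pc* without ROI 001, 0.0514 for *Fbp1* without ROI 009, 0.233 and 0.301 for *Pck1* and *Aox3* without ROI 003, 0.0788 for *Uox* without ROI 013 and 0.135 for *Ces1d* without ROI 005.

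Of 14 hepatocyte markers measured, *Hpd*, an enzyme of tyrosine breakdown, and *Pck1* were called lower (adjusted p = 0.0153 and 0.0222, and 0.581 and 0.233 without ROI 003), and the median was -0.70. *Alb*, albumin, held 611, 589 and 349 counts in CON and 820, 549, 666 and 678 in DDC segments (log2 -0.59 ± 0.32 SE, edgeR adjusted p = 0.8292), and *Apoa1* held 194, 170 and 108 against 166, 116, 122 and 156 (-1.16 ± 0.34, adjusted p = 0.0838). The summed Q3-normalized level of the list was 3309 to 5142 in CON and 1805 to 3228 in DDC segments, so hepatocyte transcripts were measured in PanCK+ segments of both diets. *Serpina3k*, with *C3* the only genes called of 14 of complement and coagulation, and *Apoa2*, both secreted by hepatocytes, fell (-2.17 ± 0.36 and -1.69 ± 0.35, the latter with adjusted p = 0.0584 without ROI 003), and *Serpina1a* fell from 26, 51 and 30 to 21, 29, 24 and 35 counts (-1.45, adjusted p = 0.0396, and 0.709 without ROI 003). These genes had higher means in IBA1+ than in PanCK+ segments of the CON-fed WT mice, with 9225 against 3085 Q3-normalized counts of *Mup13*, 867 against 289 of *Fabp1* and 6387 against 2355 of *Alb*. What a smaller share of hepatocyte RNA in the DDC segments contributes was not tested.

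None of 15 genes of the heme pathway, which DDC blocks, ferritins and metallothioneins was called, whereas 2 were called higher with DESeq2, 2 in a fit of the 7 segments alone and 3 of the 6 that passed filterByExpr. *Alas1*, the rate-limiting enzyme of heme synthesis in liver, held 5, 2 and 4 against 4, 9, 8 and 14 counts (edgeR adjusted p = 0.973), *Fth1*, ferritin heavy chain, 27, 26 and 20 against 87, 78, 128 and 132 (log2 1.14, adjusted p = 0.186), and *Mt2*, a metallothionein, 1, 2 and 3 against 18, 12, 19 and 15 (adjusted p = 0.143). None of 12 glutathione and NRF2 genes, 13 apoptosis genes, 11 genes of endoplasmic reticulum and heat stress, 13 basement membrane genes or 4 sex chromosome transcripts was called. The first of these lists' genes were *Nqo1* (1 count in CON, 1 or 2 in DDC), *Tnfrsf10b* (1 count in CON, 3, 3, 1 and 7 in DDC), *Hspa5* (5, 6 and 2 against 14, 17, 7 and 16), *Col4a1* (4, 1 and 3 against 14, 7, 22 and 29) and *Ddx3y* (2, 1 and 1 against 2, 2, 2 and 3). *Hsp90ab1* and *Hspa8*, chaperones outside these lists, rose (2.05 ± 0.47 and 1.70 ± 0.47). *Hsp90ab1* was not called without ROI 003 (adjusted p = 0.155), and *Hspa8* was called only with all 7 segments (up to 0.369, without ROI 001). The 14 cytosolic ribosomal genes had a median log2 fold change of 0.79, all above the median of all genes, and none was called. *Rpl3* held 9, 11 and 4 against 23, 24, 18 and 40 counts.

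The diet's difference in PanCK+ segments was tested against that in Trail.mye mice, whose DDC segments were deeper (172180 to 836971 counts). Of 10547 genes 12 differed by genotype (11 positive, 0.104%, and 1 negative, 0.00948%; edgeR adjusted p under 0.05). The split was 5 positive and 4 negative with TMM factors, and 11 and 6 after filterByExpr. Over all genes tested the log2 interaction had a median of 0.30, and of -0.14 with TMM factors. Without ROI 035 the median was 0.17, and 12 genes were called. *Bhmt* fell in WT mice, with means of 108.5 and 15.6 Q3-normalized counts in CON and DDC segments. In Trail.mye mice it averaged 32.1 ± 12.4 in CON and 49.2 ± 15.8 in DDC segments (SD, n = 4 and 5, interaction log2 3.45 ± 0.54 SE, adjusted p = 2.95e-05). The highest interactions were those of *Gm21783*, *Gm20815* and *Gm21828* (log2 4.46, 3.87 and 3.71), which are 3 genes of chromosome Y. Each was at 1 count in 3 of the 4 Trail.mye CON segments, so these need not be 3 independent values. The Y-linked *Ddx3y*, *Eif2s3y* and *Uty* had interactions of 1.40, 1.29 and -0.30, none called. *Gm21783* held 28, 24 and 20 counts in CON and 35, 24, 15 and 27 in DDC segments of WT mice (means of 109.7 and 58.3 Q3-normalized counts). In Trail.mye mice 3 of the 4 CON segments were at 1 count (mean of all 4 3.76 Q3-normalized counts), and the 5 DDC segments averaged 47.1. Of the 11 Y-linked genes tested, *Gm20815*, *Gm21828* and *Sly* were called lower with DDC in WT mice (adjusted p = 0.0361, 0.0146 and 0.0228, and up to 0.205, 0.171 and 0.289 without ROI 007, 005 and 005 in turn). The labels give no sex, and what the sex of the mice contributes was not tested. The only negative value was that of *Dbp*, a clock-controlled transcription factor (edgeR adjusted p = 0.00754). It was at 1 count in each WT CON segment and at 14, 6, 5 and 11 counts with DDC. Its means were 4.67 and 20.9 Q3-normalized counts in CON and DDC segments of WT mice, and 34.1 and 13.6 in those of Trail.mye mice. Among genes that rose in WT mice none had a called interaction. Their Trail.mye means in CON and DDC segments were, for example, 12.1 and 114 for *Rgs5*, 13.1 and 105 for *Mmp7*, 15.8 and 183 for *Lcn2* and 3.37 and 50.8 for *Ccl2*. The collagens rose less there. *Col3a1* averaged 35.3 and 79.4, against 8.17 and 142 in WT mice (interaction log2 -2.80 ± 0.73 SE, edgeR adjusted p = 0.147). *Col1a1* averaged 14.1 and 54.5, against 7.59 and 100.3 (-1.78 ± 0.83, not called). The lack of a called interaction does not show that the genotypes responded alike.

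**Figure D5:**
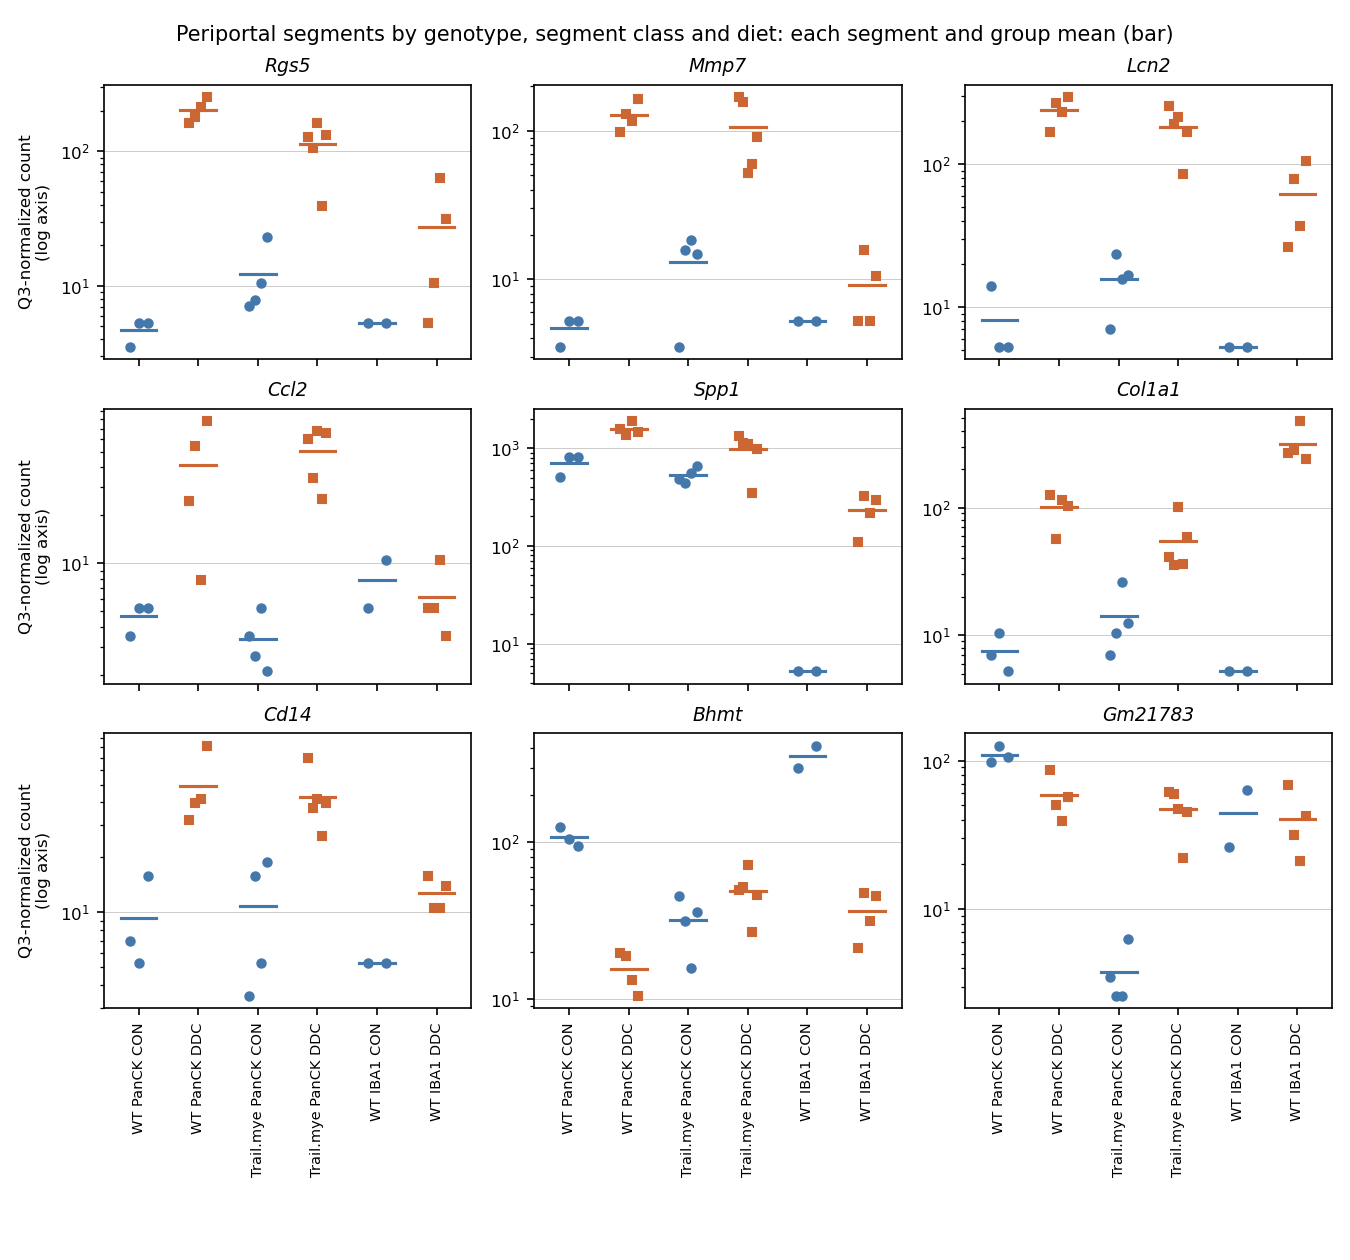
Q3-normalized counts (log axis) of 9 genes in each periportal segment of 6 groups (WT and Trail.mye PanCK+ segments and WT IBA1+ segments, CON as circles and DDC as squares), with bars at the group means. *Rgs5*, *Mmp7*, *Lcn2* and *Ccl2* are high in DDC PanCK+ segments of both genotypes, *Bhmt* is lower with DDC in both kinds of WT segment but not in Trail.mye segments, *Spp1* starts from its lowest level in IBA1+ segments, and *Gm21783* is low in Trail.mye CON segments.

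The diet's difference in PanCK+ segments was last tested against that in IBA1+ segments of the same 6 WT ROIs, with the ROI as a block. One gene differed (0.00948% of those tested, negative). At an unadjusted p under 0.05 there were 251 of 10547 genes, below the share of 0.05 that chance alone would give. *Spp1* held 819 and 809 Q3-normalized counts in the PanCK+ segments of ROIs 003 and 005, the CON ROIs in this test. ROI 001, which has no IBA1+ segment and was not in it, held 508. The DDC PanCK+ segments averaged 1562 ± 229 (SD, n = 4). Both CON IBA1+ segments were at 1 count (5.25), and the DDC IBA1+ segments averaged 235 ± 94.4 (n = 4). The interaction had an edgeR adjusted p of 0.00412, and its fitted size is no measured value because it depends on the prior count where all CON segments are at 1, as for *Dbp* above. It was not called with TMM factors, with DESeq2, in thinned counts or with any segment of ROIs 003, 005, 009, 011 or 013 left out, and only 2 CON and 4 DDC ROIs hold both segments.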

How the data were processed

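The authors hybridised a whole-transcriptome probe pool to formalin-fixed sections, indexed each segment's tags with 18 PCR cycles and kept targets found in over 10% of ROIs. The labels name bcl2fastq and mm10. The deposited raw table holds expected counts (whole numbers except in 3 genes and the negative probe, rounded for tests, lowest value 1). The deposited Q3 signal equals each raw value times 1 constant per segment (relative tolerance 1e-06). Neither table was filtered further here. Counts were tested with edgeR 4.0.16 (R 4.3.3; glmQLFit, upper-quartile factors) over the 16 PanCK+ segments of 4 groups, with Benjamini-Hochberg adjustment over 10547 genes and calls under 0.05. Interactions used the same test, that of segment class with ROI as a block, which the labels give (12 segments, 4 residual degrees of freedom; deviations of the segments of 1 ROI correlated at -0.106 to 0.114 over 349 genes). Alternatives used limma 3.58.1 and DESeq2 1.42.0, and the permutation test of total counts used scipy 1.17.1. Methods were tested on simulated data. Fold bounds used 3 counts per segment as floor. Precision covers counting and segment spread only, and the labels do not say that segments are separate mice. Members and gene lists were chosen with earlier results of these data known. Named were the 12 highest and 12 lowest called genes without overlap, called list members, each list's first gene and up to 3 interaction genes per sign; others were chosen after their values were seen. The values of 1 called list member are not reported here.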

Additional observations from a re-analysis of the deposited data

Results flagged for a closer look

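Among the 121 named genes, 4 had a DDC segment of WT mice far from the other 3 in Q3-normalized counts. Chance gives about 1 in 20 groups, so this number is no more than chance gives. *H4c11* was high in ROI 007 (113.7 Q3-normalized counts against 31.5 to 37.8, gap over range 0.923), *Sftpd* in ROI 011 (52.5 against 44.1 to 44.5, 0.956) and *Tmem176a* in ROI 013 (75.6 against 57.8 to 59.3, 0.913), and *Hspa5* was low in ROI 011 (18.4 against 33.6 to 35.7, 0.879). The deposited counts of *Sftpd*, given above, show no such gap in ROI 011.

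The diet's difference in PanCK+ segments differed between Trail.mye and WT mice for 12 genes (log2 interaction, positive where the change was higher in Trail.mye mice). The median over all genes was 0.30. *Gm21783* (4.46) and *Bhmt* (3.45) were called under all 24 settings run. *Gm20815* (3.87) and *Gm21828* (3.71) were called in 22 of 24, *Dbp* (-3.51) in 21 of 24, *Srsx* (3.57) in 21 of 23, *Klrg2* (3.37) in 18 of 24, *Aox3* (3.28) in 17 of 23, *Scp2* (2.38) in 14 of 24, *Gstp1* (2.23) in 11 of 24, and *Nudt7* (2.55) and *Cyp2d10* (2.27) in 6 of 24. *Klrg2*, of the lectin-like receptor family, held 9, 6 and 5 counts in WT CON and 1, 1, 1 and 2 in WT DDC segments. Its means were 29.8 and 2.85 Q3-normalized counts in CON and DDC segments of WT mice, and 7.57 and 7.07 in those of Trail.mye mice. For others too the genotypes differed more in CON than in DDC segments. CON means in WT and Trail.mye mice were 71.8 and 15.3 for *Cyp2d10*, 57.2 and 11.3 for *Nudt7*, 116 and 27.3 for *Scp2*, 222 and 41.4 for *Gstp1*, 35.6 and 5.08 for *Aox3* and 33.8 and 4.68 for *Srsx*. Their DDC means were 23.9 and 24.1, 5.23 and 5.41, 23.6 and 28.1, 130 and 111, 4.70 and 7.04, and 6.32 and 11.2 in turn. Between PanCK+ and IBA1+ segments of WT mice the diet's difference differed for *Spp1* (-4.39), called in 8 of 21 settings. The fitted sizes for *Spp1* and *Dbp* depend on the prior count, since their CON segments of IBA1+ and of WT PanCK+ tissue were all at 1 count.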

How the results depend on the processing

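All 96 genes kept their direction wherever they were tested, and 63 were called under each of 8 alternatives (TMM, total counts, DESeq2, limma at pseudocount 1, counts of 1 set to 0, thinned counts, the 7 segments alone and all 38 segments), and 33 of them also with each segment left out. The number called for the diet was 149 with DESeq2 (107 higher and 42 lower, of 1141 genes with an adjusted p), 331 and 284 with limma at pseudocounts 1 and 0.5, 266 of 1012 genes after filterByExpr, 163 with counts of 1 set to 0 (115 and 48), 174 in a fit of the 7 segments alone and 1009 by the p and fold thresholds of the methods' t-test (92 after Benjamini-Hochberg adjustment, of which 29 are among the 96). It was 109 with TMM factors (78 higher and 31 lower), and leaving out a segment gave 58 to 90. Over all genes, the log2 fold change had a median of 0.02 with TMM and 0.60 with counts of 1 set to 0. List members called, 32 in all, were 52 with limma at pseudocount 1, 67 after filterByExpr, 18 by the adjusted t-test and 21 to 31 with a segment left out. After filterByExpr 8 of 14 hepatocyte markers were lower. Interactions with genotype, 12 in all, were 2 with DESeq2, 2 in thinned counts, 26 and 24 with limma at pseudocounts 1 and 0.5, and 6 to 14 with a segment left out. The causes were not tested.

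With the ROI as replicate block 1 gene differed by segment class. Without the replicate block, in a fit that also took the CON PanCK+ segment of ROI 001, 2 did (*Spp1* and *Clec4f*). With the block, 4 did after filterByExpr, 3 with counts of 1 set to 0, and 0 to 1 with a segment left out. TMM, DESeq2 and thinned counts gave 0 (253, 77 and 298 of 10547 genes at an unadjusted p under 0.05). No replicate number pairs CON with DDC segments.

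Signs turned for these genes, none of them called: *Acta2* (-1.19 to 0.11 with a segment left out), *Alas1* (-0.065 in thinned counts, -0.011 to 0.49 with a segment left out), *Cyp7a1*, *Ddx3y* and *Nqo1* (4.57, 0.76 and 3.62 with counts of 1 set to 0), *Mki67* (-0.039 and -0.052 with limma at pseudocounts 1 and 0.5, -0.071 by the t-test, -0.14 to 0.27 with a segment left out) and *S100a8* (-0.039 to 0.36 with a segment left out). Depth limits low genes, since CON segments held at most 3 counts at the 75th percentile.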
